A study of Mus musculus with 6 samples.

Results

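Paip1, a partner of the cytoplasmic poly(A)-binding protein, was examined with 7 genes of the same step of translation (Paip2, Pabpc1, Pabpc4, Eif4g1, Eif4g2, Eif4a1 and Eif4e) in rhombomere 4 tissue of mouse embryos with and without a Hoxb1 mutation. Members were all probe sets that the annotation of the array assigns to one of these symbols alone, 17 of the 22626 probe sets tested and 7 of the 12393 genes named. No probe set carried the symbol Eif4g1 alone, so Eif4g1 was not analysed here. Paip1 was chosen by the group difference of 1 of its probe sets on these same arrays, and the other genes by their known link to it. Its own values are therefore a description with no test, and the question was whether its second probe set or its partners shared that difference.

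The study compared Hoxb1 mutant with wild-type embryos at E10.5 (embryonic day), each group as 3 pools of rhombomere 4 segments hybridised to 1 Affymetrix mouse array each, which the submitters call independent replicates. Rhombomere 4 is the hindbrain segment whose identity Hoxb1 specifies. The labels add that branchial arch tissue around the segment was included. They name the genotypes as Hoxb1 wt and Hoxb1 mutant. Not given in the sources used here are the allele, the zygosity, the strain and the number of embryos per pool. Because each sample is a piece of tissue, fewer cells of a type and less RNA per cell cannot be told apart.

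A messenger RNA is translated most efficiently when its ends are bridged. The cap at one end is bound by eIF4E (Eif4e), the tail at the other by poly(A)-binding proteins (Pabpc1, Pabpc4), and the scaffold eIF4G (Eif4g1) holds both, together with the RNA helicase eIF4A (Eif4a1). Paip1 resembles part of eIF4G, binds poly(A)-binding protein, eIF4A and eIF3, and stimulates translation, whereas Paip2 displaces poly(A)-binding protein from the tail and represses it. Eif4g2, also called DAP5 or p97, is an eIF4G relative that lacks the eIF4E-binding part and supports translation without the cap-binding protein.

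Intensities are in the scaled units of the deposited table. As a measure of background, probe sets against bacterial RNAs absent from mouse tissue had a median of 12.7 and a maximum of 122, and their 95th percentile was 61.5. The targeted gene, Hoxb1, read 341, 378 and 588 on the wild-type arrays and 60.8, 35.3 and 50.03 on the mutant arrays, each of the latter below that percentile. The sources used here do not say whether its probe set lies in the altered part of Hoxb1. Of 28 measured markers of 6 cell classes fixed for checking the tissue, 25 lay above background on all 6 arrays and 0 lay below it on all. These covered the neural tube, crest and arch mesenchyme, epithelium, primitive red cells, endothelium and macrophages. Above background on all arrays were 2 of 4 macrophage and leukocyte markers, 5 of 6 neural tube markers and all measured markers of the other classes. The summed crest and arch mesenchyme markers lay at 5731 to 6482 in wild type and 5380 to 5727 in mutants, narrowly without overlap. The summed neural tube markers lay at 6167 to 7373 in wild type and 5473 to 6351 in mutants, so that the ranges overlapped. Both ends of the neural tube range were lower in mutants. The remaining classes also overlapped between groups. Of the 28 markers, 0 had an unadjusted limma p under 0.05, against 5.76% of all probe sets. The 18S ribosomal RNA probe sets averaged 4948 and 3059 on wild-type replicates 2 and 3, against 80.1 to 140 on the other 4 arrays. The part of the mesenchyme and neural tube marker levels in the results below was not tested. For the 18S signal, values without those arrays, or with that signal as a covariate of the fit, are given for Paip1, for Pabpc1 1453840_at and for the count of partners.

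Paip1 was measured by 2 probe sets, both listed with the same GenBank sequence, and both were higher on every mutant array than on every wild-type array. The size differed widely between them. Probe set 1425521_at read 48.1, 33.5 and 30.3 on the wild-type arrays and 299.8, 452 and 283 on the mutant arrays, so that all 3 wild-type arrays lay below the bacterial 95th percentile and all 3 mutant arrays above the highest bacterial value. The group means were 37.3 ± 9.47 and 345 ± 93.1 (SD, n = 3), at least 5.48-fold higher in mutants when wild type is set to that percentile. Probe set 1451740_at, above background on all arrays, read 935, 897 and 1012 on the wild-type arrays and 1076, 1238 and 1207 on the mutant arrays. Its means were 948 ± 58.7 and 1173 ± 86.2, and its lowest mutant array was 1.06 times its highest wild-type array, against 5.87 times for 1425521_at. Groups did not overlap, in either direction, in 12.0% of all probe sets. Among those of mean intensity over 1000, which include 1451740_at, the share was 15.2%, and 61.4% had a higher mean in mutants.

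On the scale of log2(intensity + 16), which is used for every difference here and is given as mutant minus wild type, the differences were 2.74 (SE 0.22) for 1425521_at and 0.30 (SE 0.12) for 1451740_at. The second corresponds to 23.3% more signal in mutants. Within each array, the signal of 1425521_at was 5.15%, 3.74% and 3.00% of that of 1451740_at in wild type, and 27.9%, 36.5% and 23.4% in mutants. That percentage compares the arrays with each other. It is not a share of transcripts, because probe sets differ in how strongly they bind. Wild-type replicates 2 and 3, the arrays with high 18S signal, were the 2 lowest for 1425521_at, and with both left out the differences were 2.46 and 0.32. With the 18S signal as a covariate they were 2.47 and 0.29. The remaining wild-type array, at 48.1, was again below every mutant array.

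**Figure D1:**
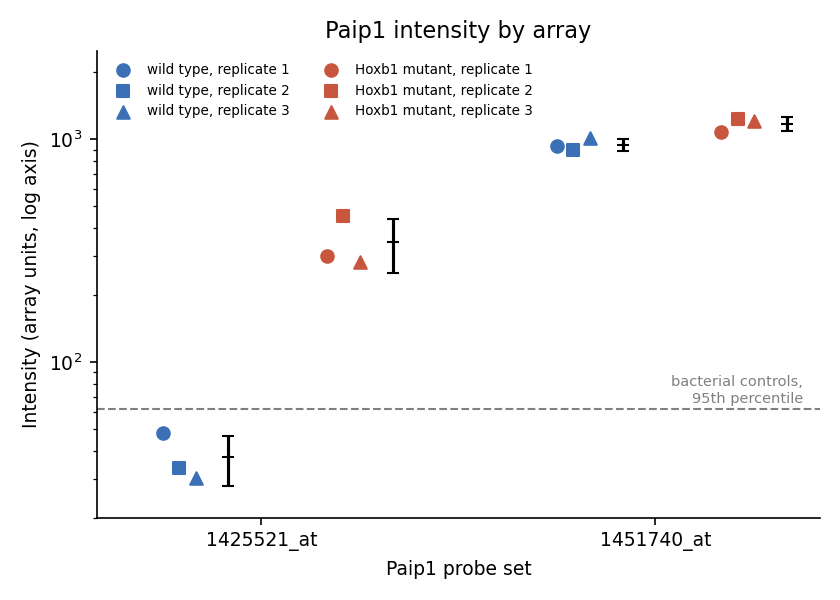
Intensity of both Paip1 probe sets on each of the 6 arrays (log axis, array units), blue for wild type and red for Hoxb1 mutant, with marker shape for the replicate number and black bars for the mean ± SD of 3 arrays. For 1425521_at the wild-type arrays lie below the dashed 95th percentile of the bacterial controls (61.5) and the mutant arrays at 283 to 452, while for 1451740_at the groups lie next to each other at 897 to 1012 and 1076 to 1238.

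The gap between the differences of both Paip1 probe sets was 2.44 log2 units. Gaps were computed for the 3832 genes with at least 2 probe sets whose mean was above the bacterial 95th percentile in at least 1 group, a condition that 1425521_at met only through the mutants. The median gap over those genes was 0.20 and the 95th percentile 0.67. Paip1 had the widest, ahead of Cplx1 (1.77), Fibp (1.61) and Supt16 (1.55). Its size rests on wild-type values of 1425521_at below background and moved with the constant added, from 2.86 with 1 to 1.70 with 64. With all intensities raised to the bacterial 95th percentile and no constant added, a choice made after seeing the data, it was 2.15. It was chosen for the high value of 1 of the 2 probe sets, so this rank describes how far apart they are and tests nothing. Among the partners the gap was 0.52 for Pabpc1, 0.37 for Eif4e, 0.05 for Eif4g2, and 0.02 for both Pabpc4 and Eif4a1. RefSeq lists 7 transcripts of Paip1, and the sources used here do not say which of them each probe set reads.

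**Figure D2:**
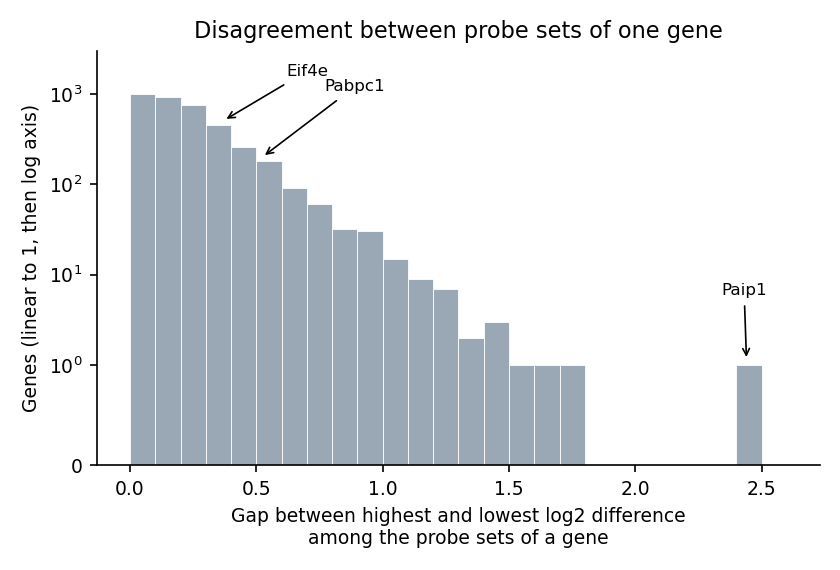
Histogram of 3832 genes by the gap between the highest and the lowest log2 difference (mutant minus wild type) among their probe sets, in bins of 0.1, with the number of genes on an axis that is linear to 1 and logarithmic above it. Paip1 lies at 2.44, a size that rests on wild-type values below background, and Pabpc1 and Eif4e lie in the body of the distribution at 0.52 and 0.37.

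The sequence before the Paip1 start is shown because Paip1 1425521_at had the largest difference of the member probe sets. Beside it stand the sequences of Eif4a1, a bright partner with small differences, and Pabpc4, the only member looked up with a TATA box match. Each holds the 250 bases before a RefSeq start in GRCm38.p6, written 5′ to 3′ on the strand of the gene, with matches to any searched motif on either strand in capitals. The windows are chr13:119428350-119428599 on the plus strand for Paip1, chr11:69672424-69672673 on the minus strand for Eif4a1 and chr4:123282661-123282910 on the plus strand for Pabpc4.
Paip1: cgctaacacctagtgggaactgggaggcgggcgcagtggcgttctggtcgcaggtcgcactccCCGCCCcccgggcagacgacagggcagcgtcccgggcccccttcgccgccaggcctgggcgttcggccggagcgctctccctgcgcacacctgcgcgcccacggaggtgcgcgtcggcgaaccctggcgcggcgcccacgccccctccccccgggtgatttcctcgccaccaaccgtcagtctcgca
Eif4a1: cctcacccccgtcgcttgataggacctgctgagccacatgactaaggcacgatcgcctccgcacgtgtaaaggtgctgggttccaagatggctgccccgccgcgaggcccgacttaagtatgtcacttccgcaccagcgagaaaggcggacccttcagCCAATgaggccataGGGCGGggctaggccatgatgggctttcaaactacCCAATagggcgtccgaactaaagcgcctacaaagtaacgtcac
Pabpc4: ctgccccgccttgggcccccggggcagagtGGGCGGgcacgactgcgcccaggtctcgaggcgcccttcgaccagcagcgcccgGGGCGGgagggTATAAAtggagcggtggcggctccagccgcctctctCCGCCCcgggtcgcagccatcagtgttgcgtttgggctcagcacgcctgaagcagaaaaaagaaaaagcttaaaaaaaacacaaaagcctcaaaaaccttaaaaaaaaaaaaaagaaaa

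The TATA box was searched as TATAAA, which occurred on either strand in 12.4% of 32851 RefSeq windows of the same length. The CCAAT box, searched as those letters, occurred in 33.9%. The GC box bound by Sp1, searched as GGGCGG, occurred in 32.7%. The core of the paired site bound by Hoxb1 with its Pbx cofactors, searched as TGATNNAT, occurred in 7.68%. The Paip1 window held 1 match, to the GC box on the opposite strand. The Eif4a1 window held 2 CCAAT boxes and 1 GC box, and the Pabpc4 window held 1 TATA box and 3 GC boxes. A second Paip1 start, 302 bases further on, had 4 GC boxes, of which the last pair overlaps, and none of the other motifs. The Hoxb1 and Pbx core was absent from all 7 windows of the 5 members looked up (Paip1, Eif4a1, Pabpc4, Eif4e and Eif4g1), which says only that these letters are not there. The first Paip1 window had a GC content of 74.8%, against a median of 52.4% over all windows.

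The partners did not share the size of the Paip1 difference. Over their 15 probe sets, of 6 genes, the log2 difference ran from -0.54 to 0.15 with a median of 0.01, where the median of all probe sets tested was -0.02. Their mean was higher in mutants in 8 and lower in 7, a split that moved with the settings. In limma, 0 of the 15 passed an adjusted p of 0.05, as did 0.0% of all probe sets, and 1 had an unadjusted p under 0.05, against 5.76% of all (1.88% higher and 3.88% lower in mutants). The lowest adjusted p among them was 0.833. Groups did not overlap in 3 of the 15, against 12.0% of all probe sets.

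**Figure D3:**
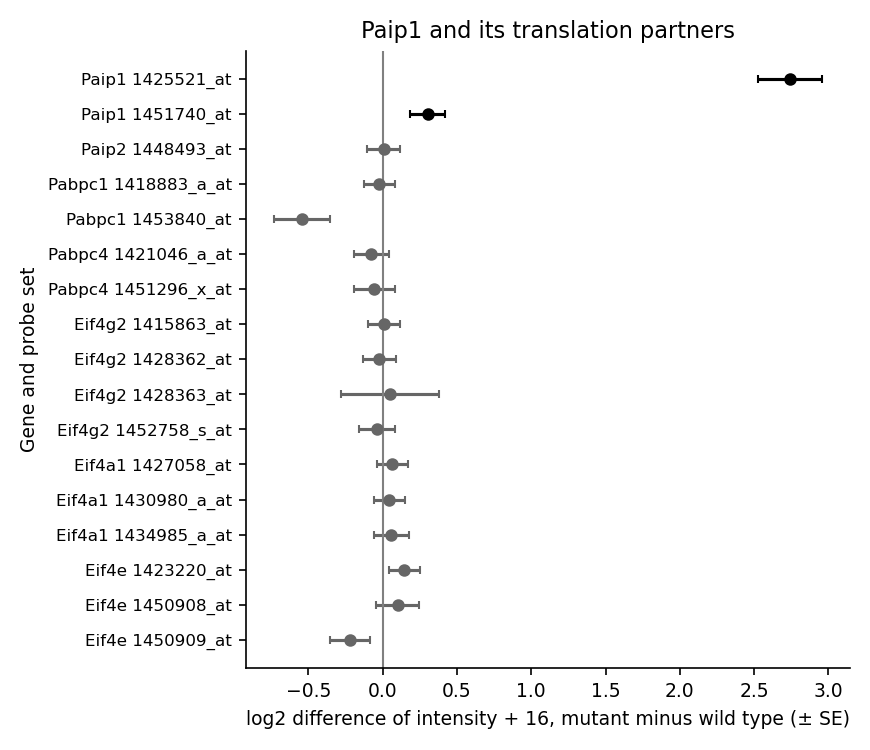
Log2 difference of intensity + 16, mutant minus wild type, for the 17 probe sets, with bars of 1 standard error from the limma fit (3 arrays per group) and black symbols for Paip1. Paip1 1425521_at lies at 2.74 and 1451740_at at 0.30, and the 15 partner probe sets lie between -0.54 and 0.15.

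The bright partners varied little within groups. Of the 15 probe sets, 12 had a mean intensity over 1000, and their differences ran from -0.08 to 0.15 with a median of 0.01. The 95% intervals of these 12 differences together spanned -0.39 to 0.45, all short of the 2.74 of Paip1 1425521_at, although several reach the 0.30 of 1451740_at. The median standard deviation of their log2 values was 0.067 in wild type and 0.080 in mutants, against 0.11 in both groups over all 3457 probe sets of that brightness. Their median absolute difference was 0.05, against 0.09 over those 3457 probe sets.

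The repressor Paip2, measured by 1448493_at, read 5062, 4812 and 4431 on the wild-type arrays and 5086, 4580 and 4698 on the mutant arrays. The groups overlapped, with means of 4768 ± 317 and 4788 ± 265 and a log2 difference of 0.01 (95% interval -0.26 to 0.28).

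Of the poly(A)-binding proteins themselves, Pabpc1, the main cytoplasmic form, was measured by a bright and a dim probe set. The bright one, 1418883_a_at, read 10202, 10100 and 10918 on the wild-type arrays and 10035, 10111 and 10573 on the mutant arrays, a difference of -0.02 (95% interval -0.27 to 0.23) with overlapping groups. The dim one, 1453840_at, read 122, 141 and 184 on the wild-type arrays and 78.0, 114 and 98.5 on the mutant arrays, so that the mutant arrays were the 3 lowest. Its means were 149 ± 31.8 and 96.7 ± 17.9 and its difference -0.54 (SE 0.19), with an unadjusted limma p of 0.0245 and an adjusted p of 0.833. All 3 mutant values lay below the highest bacterial value. This probe set had an unadjusted p under 0.05 in 8 of 16 alternative settings, and missed it without wild-type replicate 3 (-0.40), without mutant replicate 1 (-0.42) and without mutant replicate 3 (-0.56). Without wild-type replicates 2 and 3 its difference was -0.30, and with the 18S covariate -0.38, neither at an unadjusted p under 0.05.

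Pabpc4, a second cytoplasmic form, was represented by 2 probe sets of like behaviour. Probe set 1421046_a_at read 2278, 2257 and 2637 on the wild-type arrays and 2149, 2244 and 2403 on the mutant arrays. Probe set 1451296_x_at read 1981, 2296 and 2301 on the wild-type arrays and 1892, 2031 and 2430 on the mutant arrays. The groups overlapped in both, and the differences were -0.08 (95% interval -0.36 to 0.21) and -0.05 (-0.39 to 0.28). The suffix _x_at marks a set whose probes can bind other transcripts. Among the other pathway genes named below, the probe sets of Eif4ebp1 and Gspt1 also carry it.

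**Figure D4:**
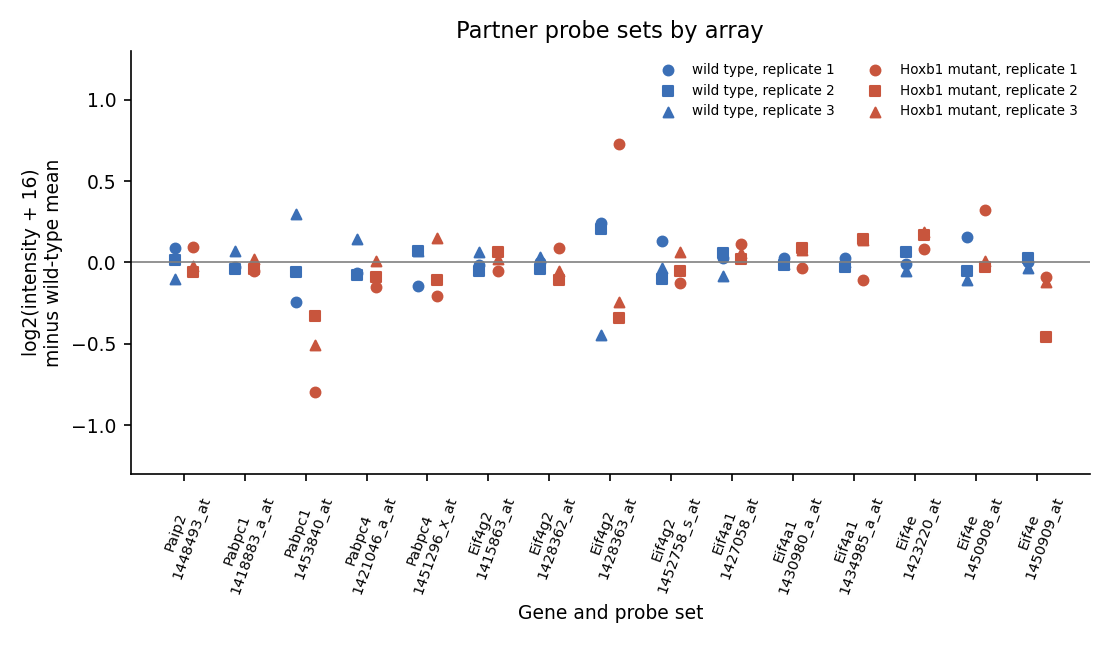
Each of the 15 partner probe sets on each array, as log2(intensity + 16) minus the mean of the 3 wild-type arrays, blue for wild type and red for Hoxb1 mutant, with marker shape for the replicate number. Most points lie close to 0 and the colours mix, while Pabpc1 1453840_at and Eif4e 1450909_at have every mutant array below the wild-type arrays, Eif4e 1423220_at has them above, and the dim Eif4g2 1428363_at scatters widely.

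The cap-binding protein gene Eif4e had 3 probe sets, all listed with 1 GenBank sequence, and they did not move one way. Probe set 1423220_at read 1379, 1452 and 1341 on the wild-type arrays and 1474, 1563 and 1583 on the mutant arrays, with every mutant array above every wild-type array and a difference of 0.15 (95% interval -0.11 to 0.40). The brightest, 1450908_at, read 3523, 3042 and 2927 on the wild-type arrays and 3952, 3096 and 3178 on the mutant arrays. Its groups overlapped, with a difference of 0.10 (95% interval -0.24 to 0.45), and in both groups replicate 1 was the highest. The dimmest, 1450909_at, read 274, 279 and 266 on the wild-type arrays and 256, 194 and 251 on the mutant arrays, with the mutant arrays lower and a difference of -0.22 (95% interval -0.55 to 0.10). Their adjusted limma p were 0.858, 0.925 and 0.845.

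The helicase gene Eif4a1 was bright on all 3 of its probe sets. The brightest, 1427058_at, read 10368, 10584 and 9627 on the wild-type arrays and 11037, 10332 and 10612 on the mutant arrays, a difference of 0.07 (95% interval -0.19 to 0.32). Probe set 1430980_a_at had means of 8588 ± 142 in wild type and 8865 ± 406 in mutants, and 1434985_a_at of 6042 ± 118 and 6310 ± 601. Their differences were 0.04 (95% interval -0.20 to 0.29) and 0.06 (-0.22 to 0.34), and the groups overlapped in all 3. In both of these, mutant replicate 1 was the lowest of the 6 arrays, at 8398 and 5616, and mutant replicates 2 and 3 were the highest. The sign of 1430980_a_at turned under quantile normalization (-0.01), and signs of other small partner differences turned under this or other settings, as given below.

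The eIF4G relative Eif4g2 was measured by 4 probe sets, of which 3 were bright. Probe set 1415863_at had a wild-type mean of 4953 ± 215 and a mutant mean of 4991 ± 201. The same means were 3122 ± 77.8 and 3077 ± 221 for 1428362_at, and 8200 ± 705 and 7970 ± 537 for 1452758_s_at. Their differences were 0.01, -0.02 and -0.04 (SE 0.11, 0.11 and 0.12), and all 3 overlapped between groups. The fourth, 1428363_at, read 62.2, 60.4 and 32.6 on the wild-type arrays and 93.8, 36.4 and 40.0 on the mutant arrays, and exceeded the bacterial 95th percentile on 2 arrays. At that level its difference of 0.05 (SE 0.33) says little.

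Other genes of the pathway were taken from 4 lists of 64 genes, of which 49 were measured, each by its brightest probe set. In the limma fit 0 of the 49 passed an adjusted p of 0.05, and 0 had an unadjusted p under 0.05 in either direction, against 1.7% of all genes higher and 3.75% lower. Their median difference was 0.01, where that of all 12393 genes was -0.02, and 28 had a higher and 21 a lower mean in mutants. Under the alternative settings, at most 2 of the 49 had an unadjusted p under 0.05.

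Subunits of eIF3, the complex that joins the small ribosomal subunit to eIF4G and to Paip1, had a higher mean in mutants in 9 of 11, with a median of 0.07. All 11 were brighter than 1000, and of all probe sets of that brightness 61.4% had a higher mean in mutants, with a median difference of 0.04. Eif3l read 4725, 4051 and 4205 on the wild-type arrays and 4988, 4746 and 5027 on the mutant arrays (difference 0.19, SE 0.11). Eif3a read 4400, 4031 and 4042 on the wild-type arrays and 4845, 4655 and 4457 on the mutant arrays (0.16, SE 0.11). In both, every mutant array lay above every wild-type array, which makes 2 of the 11 without overlap, against 15.2% of all probe sets of that brightness. In the other direction, Eif3f and Eif3d had differences of -0.11 and -0.03 (SE 0.14 and 0.13). The lowest adjusted limma p of the list was 0.845.

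Among 11 cap-binding and helicase factors, 3 had a higher and 8 a lower mean, with a median of -0.05. Eif4ebp1 and Eif4ebp2 encode inhibitors that hold eIF4E away from eIF4G, and they lay on opposite sides. Eif4ebp1 had means of 825 ± 142 and 1059 ± 229 (difference 0.35, SE 0.21), and Eif4ebp2 of 1345 ± 288 and 1113 ± 218 (-0.27, SE 0.21), both with overlapping groups. Eif4a2, the paralog of Eif4a1, had a difference of 0.07 (SE 0.14), and Eif4g3, the second classical eIF4G, of -0.20 (SE 0.19). The 3 wild-type arrays of Eif4g3 were spread from 825 to 1382, and its mutant arrays from 913 to 954.

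Other partners of poly(A)-binding protein, 15 in number, had a median difference of 0.02. Hnrnpd, an AU-rich element binding protein, read 4092, 3961 and 4264 on the wild-type arrays and 2935, 3895 and 3559 on the mutant arrays, with no overlap (difference -0.25, SE 0.14). Tob1, which links poly(A)-binding protein to deadenylases, had -0.22 (SE 0.13), and Gspt1, the release factor eRF3a, had 0.14 (SE 0.13). Pabpc2 had 0.06 (SE 0.13) near background. The 12 deadenylases and adaptors, which shorten the poly(A) tail, had a median of 0.01. Cnot3 read 819, 1384 and 1425 on the wild-type arrays and 771, 854 and 999.9 on the mutant arrays, where wild-type replicate 1 lay among the mutants (difference -0.43, SE 0.24). Btg2 had -0.23 (SE 0.17), and the catalytic subunits Cnot6 and Cnot6l had 0.08 and 0.06 (SE 0.14 and 0.15).

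The probe sets of other genes whose profile over the 6 arrays was closest to that of Paip1 1425521_at belonged to Stk17b, Pyroxd1 and Supt16. Closeness was the root mean square difference of log2 values, each profile centred on its own mean, among 16116 probe sets. Each had a mean above the bacterial 95th percentile in at least 1 group, which Stk17b and Pyroxd1 met only through the mutants. The profile searched with is the one that chose Paip1, so the matches are a description and test nothing. The root mean square difference was 0.75, 0.78 and 0.78, against 1.24 for the other Paip1 probe set. Supt16, which encodes a subunit of the FACT histone chaperone, read 160, 134 and 149 on the wild-type arrays and 266, 545 and 338 on the mutant arrays with 1449578_at, so that mutant replicate 2 was the highest there, as in Paip1. Stk17b, a death-associated kinase gene, read 36.2, 40.5 and 23.7 on the wild-type arrays and 111, 102 and 114 on the mutant arrays, all below the highest bacterial value. Pyroxd1, an oxidoreductase gene, read 44.1, 10.4 and 6.77 on the wild-type arrays and 83.7, 81.9 and 46.7 on the mutant arrays. Only its mutant replicates 1 and 2 exceeded the bacterial 95th percentile, and all 6 values lay below the highest bacterial value. The other Supt16 probe set had a difference of -0.32, against 1.23, so that its pair differed in direction, whereas both Paip1 probe sets were higher in mutants and differed in size.

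Paip1 lies on chromosome 13, and its measured neighbours in the RefSeq gene order differed by side. The 3 nearest measured genes on each side have 9 probe sets, of which 3 had an unadjusted limma p under 0.05, all of them lower in mutants and on the side after Paip1, against 3.88% of all probe sets lower. They come from 4833420G17Rik and Tmem267 only, and probe sets of 1 gene are not separate observations. None of the 9 passed an adjusted p of 0.05. The gene next to Paip1 on that side, 4833420G17Rik, read 493, 561 and 445 on the wild-type arrays and 385, 276 and 343 on the mutant arrays with 1419635_at. With 1419636_at it read 357, 286 and 325 and then 252, 165 and 253. In both, the 3 mutant arrays were the lowest of the 6. The differences were -0.56 and -0.52 (SE 0.16 and 0.19), and its brightest probe set, 1419637_s_at, had -0.17 (SE 0.12) with overlapping groups.

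Tmem267, a transmembrane protein gene and the third measured gene on that side, read 234, 236 and 180 on the wild-type arrays and 155, 112 and 132 on the mutant arrays, again without overlap. Its difference was -0.65 (SE 0.16), with an unadjusted limma p of 0.00603 and an adjusted p of 0.734. It stayed between -0.78 and -0.51 with an unadjusted p under 0.05 in 16 of 16 alternative settings. For 4833420G17Rik an unadjusted limma p under 0.05 was reached in 14 of 16 settings by 1419635_at and in 11 of 16 by 1419636_at. Its brightest probe set, 1419637_s_at, reached it in 0 of 16. Between these genes, 3110070M22Rik was below background on all arrays. On the other side, Nnt, the mitochondrial transhydrogenase next to Paip1, had means of 704 ± 12.6 and 759 ± 41.5 with 1416105_at (difference 0.10, SE 0.11), with mutant arrays of 714 to 795 above wild-type arrays of 690 to 712. Its second probe set had 0.13 (SE 0.12), Mrps30, a mitochondrial ribosomal protein gene, 0.12 (SE 0.13), and Fgf10 was below background on all arrays.

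**Figure D5:**
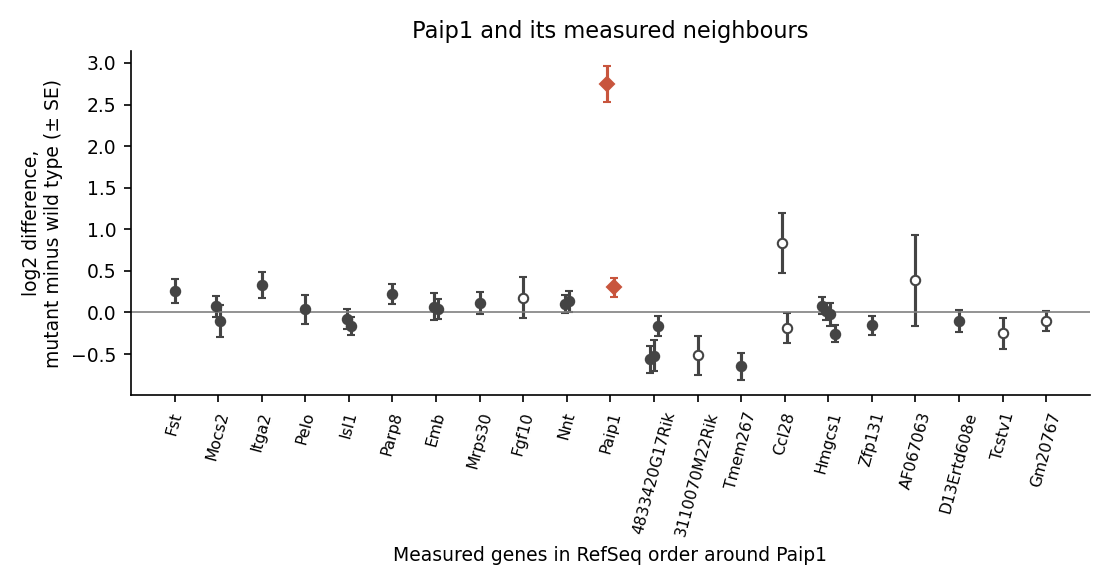
Log2 difference (mutant minus wild type) of the 10 measured genes on each side of Paip1 in RefSeq order, 1 point per probe set with bars of 1 standard error, and Paip1 as red diamonds. Open points have both group means at or below the bacterial 95th percentile. The 3 genes that follow Paip1 lie below 0, with Tmem267 at -0.65, and the genes before it lie between -0.16 and 0.33.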

How the data were processed

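The authors deposited intensities on a linear scale, made with affy per the submitters' processing notes, and the expression algorithm was not given in the sources used here. In the deposited values the mean of all 22690 intensities, with 2% trimmed at each end, was 500.0 on every array, and 0 pairs of arrays were identical. After leaving out 64 control probe sets, log2(intensity + 16) was fitted to genotype in limma 3.58.1 under R 4.3.3 (eBayes, 2-sided), adjusted by Benjamini-Hochberg over 22626 probe sets at a threshold of 0.05. The step was tested on simulated data. Background was taken from 27 bacterial control probe sets. Symbols came from the platform annotation, updated through Entrez identifiers in a RefSeq table of GRCm38.p6. The sources used here name no build for the array, and that table served for names, gene order and promoter windows.

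The members and lists were chosen with earlier results of these data known. Genes named by rule were Hoxb1, all members, in each list the 2 genes of smallest p in either direction, the 3 closest profiles and the 3 nearest measured genes on each side of Paip1. Outside that rule, Cplx1, Fibp and Supt16 were named for the widest gaps between probe sets after Paip1. Hmgcs1 and Ccl28 were named for their values in the wider window of neighbours. Precision is limited by the number of arrays, with a median standard error of 0.16.

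Alternatives were quantile normalization, median centring, leaving out the dimmest 33.3% of probe sets, pseudocounts of 1 and 64, trend and robust eBayes, array weights, a block for the replicate number, the 18S signal as a covariate, leaving out each array, leaving out wild-type replicates 2 and 3, and averaging the probe sets of each gene. Deviations of same-numbered arrays from their group means correlated at 0.05, -0.02 and 0.04, so the numbers were not taken as pairs.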

Additional observations from a re-analysis of the deposited data

How the results depend on the processing

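Paip1 1425521_at was higher in mutants under 16 of 16 alternatives. Its difference was 3.17 with a pseudocount of 1 and 1.99 with 64, since the added constant shrinks differences of dim probe sets, and ran from 2.54 to 2.88 when each array was left out. Paip1 1451740_at ran from 0.26 to 0.36 over 16 alternatives, all in the same direction. With the replicate number as a block the differences were again 2.74 and 0.30, and 1 partner probe set and 0 list genes had an unadjusted p under 0.05. The number of partner probe sets with an unadjusted p under 0.05, 1 as reported, was 0 with quantile normalization, median centring, array weights, the 18S covariate and without wild-type replicates 2 and 3, and 0 to 1 when each array was left out. Among the 49 other pathway genes, 0 as reported, it was 2 with trend and robust eBayes and 0 to 2 when each array was left out. Over all probe sets, 0 passed an adjusted p of 0.05, and 4 did with array weights, 4 with median centring, 2 without the dimmest 33.3%, 3 with trend and robust eBayes and 3 with quantile normalization. Of 239 alternative values of partner differences, 233 moved by less than 1 SD of the log2 values within groups. That limit admits turns of sign, because most partner differences are small. Signs turned in at least 1 alternative for Paip2, Pabpc1 1418883_a_at, Pabpc4 1451296_x_at, Eif4e 1450908_at, Eif4a1 1430980_a_at and each Eif4g2 probe set. The largest difference of a partner brighter than 1000 was 0.20 in size. Leaving out the dimmest probe sets removed Eif4g2 1428363_at. The cause of these changes was not tested. Near background, as for wild-type Paip1 1425521_at and Eif4g2 1428363_at, the signal sets the limit.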

Other observations

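Extending the view to 10 measured genes on each side of Paip1, a window chosen after the nearest genes had been seen, the 14 probe sets before Paip1 had a higher mean in mutants in 11 and a lower one in 3, with a median difference of 0.09. The 16 probe sets after it had a higher mean in 4 and a lower one in 12, with a median of -0.16. The median of all probe sets tested was -0.02. Genes with more than 1 probe set lay on both sides, and their probe sets are not separate observations. An unadjusted limma p under 0.05 was reached by 0 of the 14 and by 4 of the 16, all 4 lower. Of all probe sets, 3.88% reached it lower and 1.88% higher. Of the 4, 3 were the probe sets of 4833420G17Rik and Tmem267 seen before the window was chosen, so the count tests nothing. The differences after Paip1 ran from -0.65 to 0.84, the highest being Ccl28 1450217_at, which was below background on all arrays. The fourth belonged to Hmgcs1, which encodes an enzyme of cholesterol synthesis, whose 1433446_at had means of 2459 and 2058 in wild type and mutants (difference -0.26, SE 0.10). Its other 3 probe sets had 0.08, 0.01 and -0.02. Of the 16 probe sets after Paip1, 10 had a mean above the bacterial 95th percentile in at least 1 group, and of the 14 before it, 13.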
